A study of Mus musculus with 4 samples.

Results

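The secreted proteins that call neutrophils and T cells into the inflamed colon were followed here through 9 genes, namely the CXC chemokine genes *Cxcl1*, *Cxcl2*, *Cxcl3*, *Cxcl5*, *Cxcl9*, *Cxcl10* and *Cxcl16*, the CC chemokine gene *Ccl20*, and *Csf3*, which encodes granulocyte colony-stimulating factor (G-CSF). The members were taken by gene symbol from the 16015 genes that the authors listed, and all 9 were found. Bulk RNA sequencing was available for colonic epithelial cells of 2 control mice (*Bmal1* fl/fl, labelled WT) and 2 *Bmal1* cKO mice (*Villin-CreERT2; Bmal1* fl/fl), 1 library per mouse. The comparison addressed what loss of the clock gene *Bmal1* in the intestinal epithelium changed during colitis. All mice were on the C57BL/6 background, aged 2 to 4 months, and drank 3% dextran sulfate sodium (DSS), a polysaccharide that injures the colonic epithelium, for 5 days followed by water for 2 days, and the cells were taken on day 7. The Villin promoter drives the tamoxifen-dependent Cre in intestinal epithelium, so that immune and stromal cells of the *Bmal1* cKO mice keep the gene. Tamoxifen was injected daily for 5 days to switch the Cre on, and whether control mice received it too is not stated in the sources used here.

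Chemokines are small proteins that guide leukocytes through G protein-coupled receptors. CXCL1, CXCL2, CXCL3 and CXCL5 bind CXCR2 on neutrophils. CXCL9 and CXCL10 are induced by interferons and bind CXCR3 on activated T cells and natural killer (NK) cells. CXCL16 is made as a membrane protein, binds CXCR6 and is shed from the cell surface by ADAM10 and ADAM17, while CCL20 draws CCR6-bearing lymphocytes and dendritic cells to the gut epithelium and its lymphoid follicles. G-CSF acts through CSF3R on the bone marrow, where it drives the production and release of neutrophils. In the inflamed colon, epithelial cells, macrophages, neutrophils, fibroblasts and endothelial cells can all make several of these proteins, mostly under NF-κB, the transcription factor downstream of TNF, IL-1, IL-17 and microbial signals.

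*Cxcl1*, *Cxcl2* and *Cxcl3* lie close together on chromosome 5 and carried the same stretch of 11 bases, GGGAATTTCCC, upstream of their start sites. The stretches below are shown because they hold the NF-κB consensus match of the 5 members that had one in the promoter window, which ran from 250 bases before to 50 bases after the start site in RefSeq for GRCm38.p6. They read 5′ to 3′ on the strand of the gene and end 21 bases before the start site, and the capitals mark the match. *Cxcl1* is given from chr5:90891160-90891224, *Cxcl2* from chr5:90903788-90903878, *Cxcl3* from chr5:90786014-90786080 and *Ccl20* from chr1:83116671-83116745, all on the plus strand, and *Cxcl10* from chr5:92348910-92349007 on the minus strand.
Cxcl1: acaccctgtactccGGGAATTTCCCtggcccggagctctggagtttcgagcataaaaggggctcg
Cxcl2: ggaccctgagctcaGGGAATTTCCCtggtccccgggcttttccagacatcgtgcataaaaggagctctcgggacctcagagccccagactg
Cxcl3: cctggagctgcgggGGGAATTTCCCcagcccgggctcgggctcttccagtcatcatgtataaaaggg
Cxcl10: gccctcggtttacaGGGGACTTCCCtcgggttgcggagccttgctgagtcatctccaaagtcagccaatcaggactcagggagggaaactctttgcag
Ccl20: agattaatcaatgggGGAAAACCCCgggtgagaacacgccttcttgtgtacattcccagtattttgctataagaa

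The match lay from 71 to 61 bases before the start site in *Cxcl1*, from 97 to 87 in *Cxcl2* and from 73 to 63 in *Cxcl3*, where it was read on both strands with overlapping matches. The 11 bases occurred in 14 of 32851 promoter windows (0.0426%), and the NF-κB consensus occurred in 8.46% of them. *Ccl20* held its match from 80 to 71 bases before the start. *Cxcl10* held one from 159 to 150 and another from 104 to 94, together with a match to the interferon-stimulated response element (ISRE, searched as GAAANNGAAA, in 3.44% of windows) from 213 to 204. *Cxcl9* held no match to the NF-κB consensus, the ISRE or the gamma-activated sequence (GAS, searched as TTCNNNGAA, in 8.30% of windows) in this window. The E-box CACGTG, the letters that BMAL1 with CLOCK binds, occurred in 7.15% of windows and among the members in *Cxcl3* alone, from 155 to 150 bases before the start, and TATAAA (13.6% of windows) occurred in *Cxcl3* and *Cxcl9*. All motifs were searched on both strands, a match describes the letters and shows no binding, and a missing match says only that the letters are not in the window. *Cxcl5*, *Cxcl16* and *Csf3* were not searched.

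The values are normalized counts, in which the reads of each library were divided by that library's size factor. The reads on listed genes ranged from 10312791 in *Bmal1* cKO mouse 2 to 14156639 in control mouse 2, and 1 read was worth between 0.845 and 1.35 normalized counts. Fold changes were computed on log2(normalized count + 1), *Bmal1* cKO over control, and tested with limma. A mean of at least 10 was required, which 13983 genes and all 9 members reached. Mice of a group are separate animals, and control mice differed more from each other than *Bmal1* cKO mice did (chi-square per gene of 40.9 against 10.1). The targeted gene *Bmal1*, listed as *Arntl*, was similar in all libraries. It had 358 and 342 normalized counts in control mice 1 and 2 and 341 and 289 in *Bmal1* cKO mice 1 and 2, and with a log2 fold change of -0.16 (SE 0.14) it did not pass the test (adjusted p = 0.389). Gene-level counts do not tell whether the floxed exon was among the reads, and directions are those of the libraries labelled *Bmal1* cKO. Across 13975 genes the log2 fold change also followed GC content (Spearman's rho -0.61, a description across genes, which are not independent).

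Of the 9 members, 4 were lower in the *Bmal1* cKO libraries (*Csf3*, *Cxcl2*, *Cxcl1* and *Cxcl16*) and 1 was higher (*Cxcl9*) at an adjusted p under 0.05, while *Cxcl3*, *Cxcl5*, *Cxcl10* and *Ccl20* did not pass the test. Of all tested genes, 27.7% were lower and 29.0% were higher by the same rule, 3871 and 4059 genes. With the library total as the scale these numbers became 4910 and 3091. The median log2 fold change was -2.46 over the 9 members and -0.04 over all tested genes. Both *Bmal1* cKO mice lay below both control mice for 5 members (41.7% of all tested genes) and above them for 1 (40.3% of all tested genes), and the groups overlapped for the other 3. The numbers depended on single mice, since 2 members were lower without control mouse 2 or without *Bmal1* cKO mouse 2, and 2 were higher without control mouse 1.

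**Figure D1:**
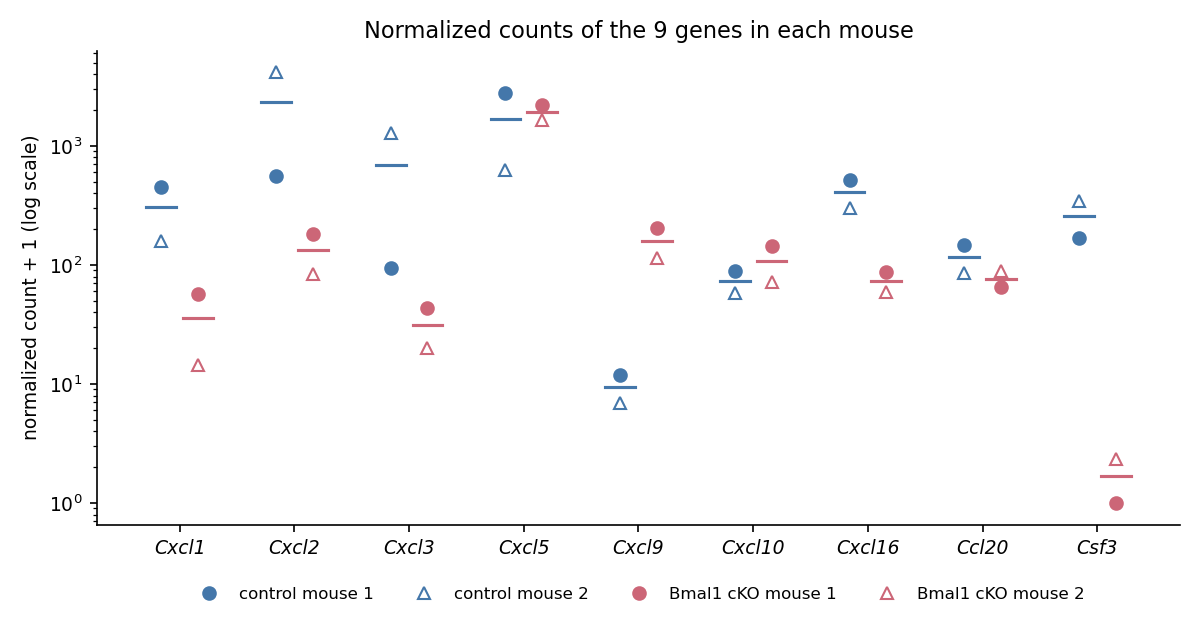
Normalized count plus 1 on a log scale (y axis) of each gene (x axis) in each of the 4 mice, with a horizontal bar at the mean of each group. The *Bmal1* cKO mice sit below both control mice for *Cxcl1*, *Cxcl2*, *Cxcl3*, *Cxcl16* and *Csf3* and above them for *Cxcl9*, and the control mice are far apart for *Cxcl2*, *Cxcl3* and *Cxcl5*.

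*Csf3* (chromosome 11, 98701263 to 98703629, plus strand) showed the widest gap between the groups among the members. It had 167 and 342 normalized counts in control mice 1 and 2, from 198 and 404 reads, and 0 and 1.35 in *Bmal1* cKO mice 1 and 2, from 0 and 1 read. Transcripts of G-CSF were thus well above the limit of 3 reads in both control libraries and at or below it in both *Bmal1* cKO libraries. Against that limit, set per library, the mean of *Bmal1* cKO was at least 71.3-fold lower than that of control, a bound that covers counting error only and that was 46.9-fold from control mouse 1 alone. The fitted log2 fold change of -7.29 (standard error, SE, 0.69 and adjusted p = 0.000902) was the 5th lowest of the 13983 genes, and its size depended on the pseudocount and the test, from -8.76 to -5.44, while the call remained in all 15 alternatives. In these bulk libraries, fewer cells that make a transcript and less transcript per cell cannot be told apart.

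*Cxcl1* (chromosome 5, 90891241 to 90893115, plus strand) encodes a main neutrophil attractant of the mouse. It had 451 and 158 normalized counts in control mice 1 and 2 and 56.6 and 13.5 in *Bmal1* cKO mice 1 and 2. Both *Bmal1* cKO values were below the lower control value, and the mean fell from 304 ± 208 (SD, n = 2) to 35.0 ± 30.4 (SD, n = 2), 8.68-fold. A log2 fold change of -3.21 (SE 0.79) passed the test (adjusted p = 0.0191, limma). It kept its sign when any mouse was left out (-4.21 to -2.22), but the adjusted p was 0.137 without control mouse 1, 0.0522 without control mouse 2 and 0.103 without *Bmal1* cKO mouse 2.

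*Cxcl2* (chromosome 5, 90903871 to 90905938, plus strand), whose product is released early by macrophages and neutrophils, had 559 and 4157 normalized counts in control mice 1 and 2 and 181 and 82.5 in *Bmal1* cKO mice 1 and 2. The control mice differed 7.43-fold, and even the lower of them was above both *Bmal1* cKO mice. The ratio of the means was 17.9, and the log2 fold change of -3.63 (SE 0.95) passed the test (adjusted p = 0.0229, limma). Control mouse 2 carried much of this size, since the log2 fold change was -2.18 without it (adjusted p = 0.0563). The adjusted p was 0.0978 without *Bmal1* cKO mouse 1 and 0.169 without *Bmal1* cKO mouse 2.

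*Cxcl3* (chromosome 5, 90786103 to 90789600, plus strand) is a close paralog of *Cxcl2*. It had 93.8 and 1293 normalized counts in control mice 1 and 2 and 42.2 and 18.9 in *Bmal1* cKO mice 1 and 2. As for *Cxcl2*, control mouse 2 was by far the highest and the groups did not overlap, with a 13.8-fold difference between the control mice. A log2 fold change of -3.58 (SE 1.21) just missed the threshold (adjusted p = 0.0509, 95% interval -6.63 to -0.53). It passed in 7 of 15 alternatives, among them DESeq2 on the recovered reads (adjusted p = 0.00905), edgeR (0.0444) and the fit without control mouse 1 (-5.46, adjusted p = 0.0157), whereas without control mouse 2 it was -1.69 (adjusted p = 0.117). *Cxcl2* and *Cxcl3* share 69 identical transcript windows of 100 bases, of 2259 in *Cxcl2* and 3672 in *Cxcl3*, so that reads from these stretches could be split between the pair, and no other member shared such a window with any gene.

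*Cxcl5* (chromosome 5, 90759360 to 90761624, plus strand), the CXCR2 ligand most associated with epithelial cells, did not follow its neighbors. It had 2771 and 622 normalized counts in control mice 1 and 2 and 2190 and 1645 in *Bmal1* cKO mice 1 and 2, so that both *Bmal1* cKO values lay between the control values. No difference was detectable (log2 fold change 0.53, SE 0.67, adjusted p = 0.523), and the 95% interval of -1.16 to 2.22 holds changes in either direction. Its sign rested on the control mice and on the joint correction for GC content and exon length, since it was 1.61 without control mouse 1 (adjusted p = 0.0200), -0.55 without control mouse 2 (adjusted p = 0.124) and -0.28 with that correction (adjusted p = 0.768). Among these neutrophil factors, control mouse 1 was the highest for *Cxcl1* and *Cxcl5*, and control mouse 2 for *Cxcl2*, *Cxcl3* and *Csf3*.

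*Cxcl9* (chromosome 5, 92321347 to 92328079, minus strand), whose product recruits CXCR3-bearing T cells and is induced chiefly by interferon-γ, was the member that rose. It had 11.0 and 5.93 normalized counts in control mice 1 and 2, from 13 and 7 reads, and 204 and 114 in *Bmal1* cKO mice 1 and 2, from 198 and 84 reads. All *Bmal1* cKO values were far above the control values, and the ratio of the means was 18.8. Its log2 fold change of 4.07 (SE 0.50, adjusted p = 0.00182) was the 7th highest of the 13983 genes and passed in all 15 alternatives, between 3.38 and 4.49.

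*Cxcl10* (chromosome 5, 92346638 to 92348889, minus strand) encodes the other CXCR3 ligand among the members and lies beside *Cxcl9*. It had 88.7 and 56.8 normalized counts in control mice 1 and 2 and 144 and 71.6 in *Bmal1* cKO mice 1 and 2, with *Bmal1* cKO mouse 2 between the control mice. It did not pass the test (log2 fold change 0.51, SE 0.43, adjusted p = 0.342, 95% interval -0.56 to 1.59), and no alternative brought it past the threshold. The gene that encodes ADP-ribosyltransferase 3, *Art3*, overlaps its exons on the other strand with 22.0, 7.62, 1.03 and 1.35 normalized counts in control mice 1 and 2 and *Bmal1* cKO mice 1 and 2, and the use of strand in the counting is not given in the sources used here.

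*Cxcl16* (chromosome 11, 70453983 to 70459984, minus strand) had 515 and 301 normalized counts in control mice 1 and 2 and 86.4 and 58.1 in *Bmal1* cKO mice 1 and 2. The groups were well apart, and the mean fell 5.65-fold, from 408 to 72.3. A log2 fold change of -2.46 (SE 0.34, adjusted p = 0.00261) resulted, which passed in all 15 alternatives, between -2.84 and -2.07. *Zmynd15* overlaps its exons on the other strand with 65.1, 22.9, 11.3 and 2.70 normalized counts in the same order of mice, well below *Cxcl16* in each.

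*Ccl20* (chromosome 1, 83116766 to 83119167, plus strand) had 146 and 83.9 normalized counts in control mice 1 and 2 and 63.8 and 87.9 in *Bmal1* cKO mice 1 and 2. Control mouse 1 stood above the other 3 mice, and the groups overlapped. With a log2 fold change of -0.56 (SE 0.36, 95% interval -1.46 to 0.34) it did not pass the test (adjusted p = 0.227). *Ccl20* has the lowest GC content of the 9 members (39.0%), and when GC content and exon length were corrected for, its log2 fold change was -1.59 (adjusted p = 0.0237), so that its call rests on this choice.

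**Figure D2:**
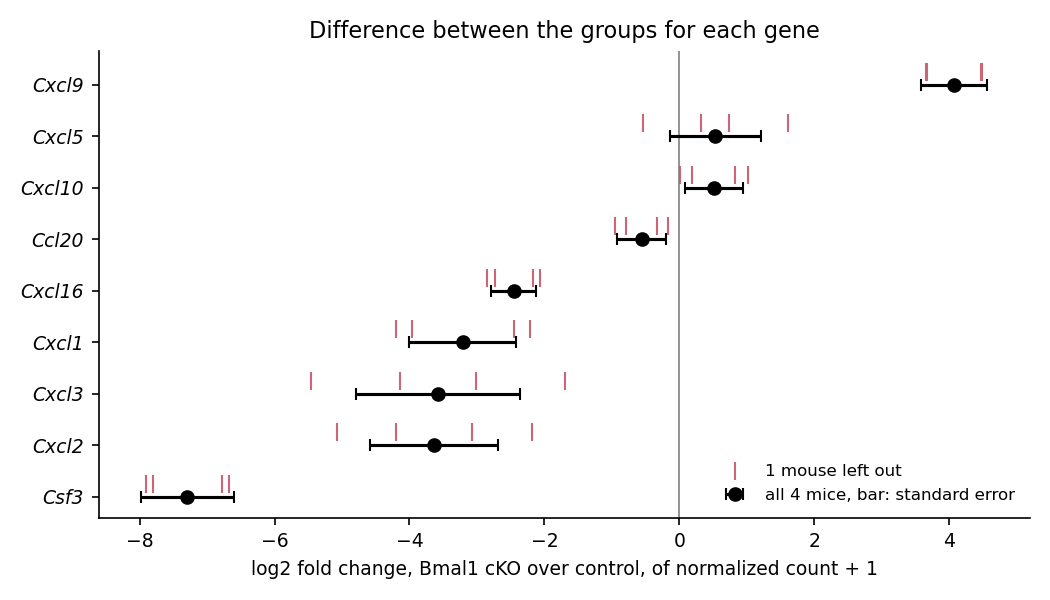
Log2 fold change of each gene, *Bmal1* cKO over control, of normalized count plus 1 (x axis), with all 4 mice (points, bars are standard errors) and in fits that leave 1 mouse out (ticks). *Cxcl9* stays between 3.65 and 4.49 and *Csf3* between -7.91 and -6.68, whereas *Cxcl5* lies on both sides of 0.

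Per kilobase of exon, the leading transcript changed with the mouse. *Cxcl5* held 60.5% of the summed level of the 9 genes in control mouse 1 and 77.8% and 81.2% in the *Bmal1* cKO mice, but 10.3% in control mouse 2. There *Cxcl2* led with 62.3%, followed by *Cxcl3* with 11.5%, whereas *Cxcl2* held 11.0% in control mouse 1 and 5.80% and 3.67% in *Bmal1* cKO mice 1 and 2. The sum over the 9 genes was 2460 and 3226 normalized counts per kilobase in control mice 1 and 2 and 1510 and 1087 in *Bmal1* cKO mice 1 and 2. *Cxcl9* was the lowest member per kilobase in both control mice, with 0.148% and 0.0609% of the sum. It held 4.47% and 3.46% in *Bmal1* cKO mice 1 and 2, close to *Cxcl10* with 4.23% and 2.93%. By the group means per kilobase, *Cxcl2* (1140) and *Cxcl5* (911) led in control and *Cxcl5* (1029) led in *Bmal1* cKO, and the order of the pair in control is within the spread of the control mice.

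**Figure D3:**
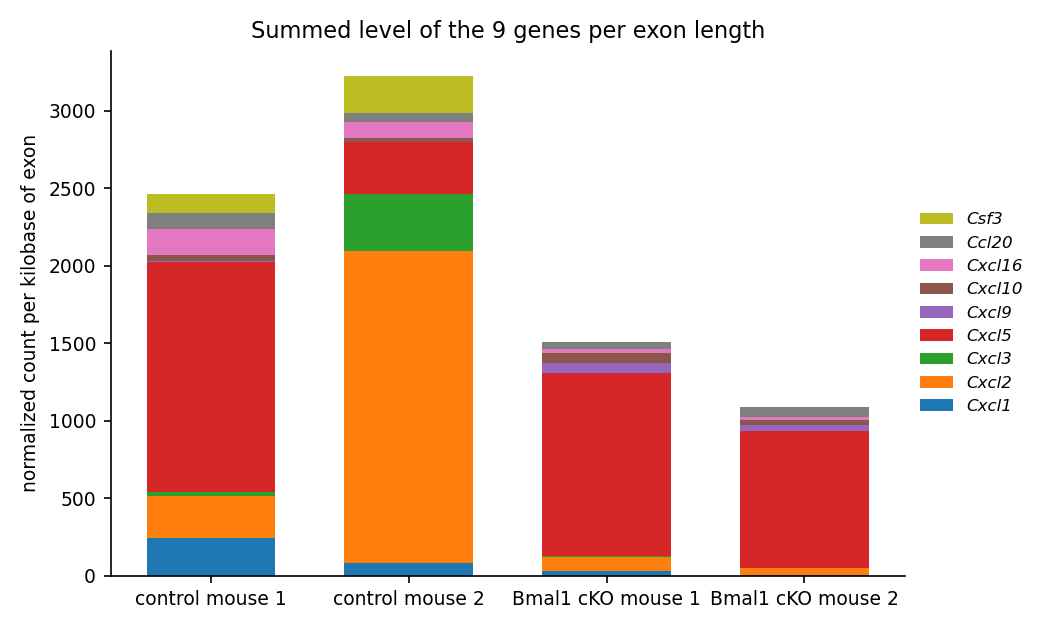
Normalized counts per kilobase of exon (y axis) of the 9 genes, stacked for each of the 4 mice (x axis). *Cxcl5* makes up most of the column in control mouse 1 and in both *Bmal1* cKO mice, and *Cxcl2* most of it in control mouse 2.

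The members also differed in the AU-rich pentamer ATTTA, which marks short-lived cytokine transcripts. In the longest annotated 3′ untranslated region (GENCODE M21), *Cxcl1* held 7 copies in 592 bases, 11.8 per kilobase. *Csf3* held 8.97 per kilobase, *Ccl20* 8.57, *Cxcl3* 7.75, *Cxcl2* 7.36, *Cxcl5* 4.50 and *Cxcl10* 3.01, against a median of 1.21 over 13048 tested genes. *Cxcl16* (1.41) and *Cxcl9* (1.22) were close to that median. Both rich and poor members were thus among those lower in *Bmal1* cKO.

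The receptors of these ligands were measured in the same libraries. Of 5 tested receptor genes, 3 were lower, none was higher and 2 did not pass, with a median log2 fold change of -2.53, where 27.7% of all tested genes were lower and 29.0% higher. *Cxcr2*, the neutrophil receptor of CXCL1, CXCL2, CXCL3 and CXCL5, had 71.8 and 231 normalized counts in control mice 1 and 2 and 32.9 and 6.76 in *Bmal1* cKO mice 1 and 2 (SE of the log2 fold change 0.88, adjusted p = 0.0330). The G-CSF receptor gene *Csf3r* had 142 and 501 against 58.6 and 35.1 (log2 fold change -2.53, SE 0.63, adjusted p = 0.0194). For both, control mouse 2 was the highest and the groups did not overlap. *Ackr1*, which encodes a chemokine-binding receptor of venular endothelium and red cells, had 98 and 12 reads in control mice 1 and 2 and 0 in both *Bmal1* cKO mice (adjusted p = 0.0208). *Cxcr6* (adjusted p = 0.771) and *Ccr6* (adjusted p = 0.337) did not pass, *Cxcr3* was listed but below the mean required for a test, and *Cxcr1* was not listed. The receptor calls rested on single mice, with 2 of the 5 genes lower without control mouse 1, 1 without control mouse 2, 1 without *Bmal1* cKO mouse 1 and 0 without *Bmal1* cKO mouse 2. Correction for GC content and length left 2 of them lower, without *Csf3r*, and this correction together with the replicate block left 0.

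**Figure D4:**
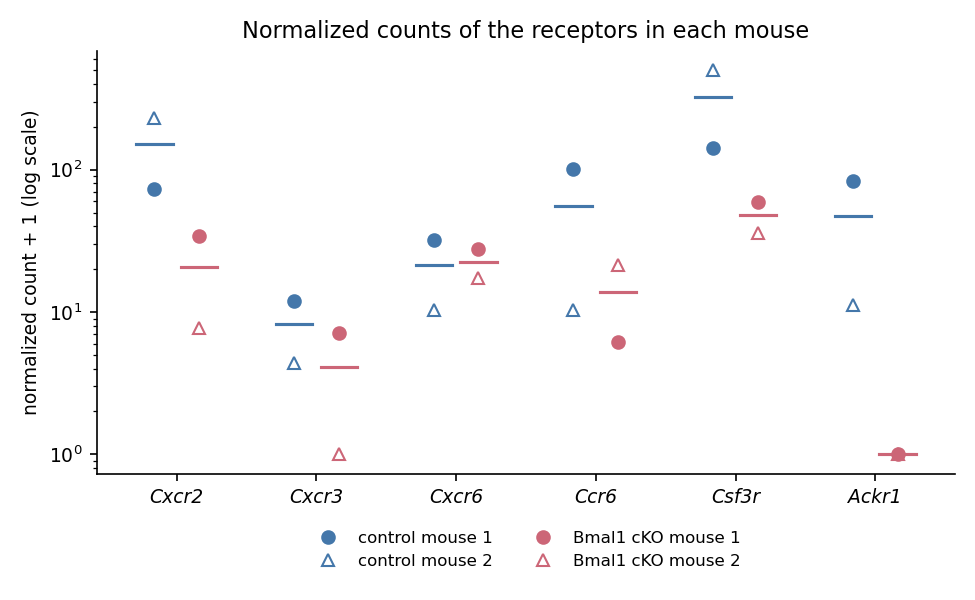
Normalized count plus 1 on a log scale (y axis) of each listed receptor gene (x axis) in each of the 4 mice, with a horizontal bar at the mean of each group. *Cxcr2*, *Csf3r* and *Ackr1* are lower in both *Bmal1* cKO mice, *Ackr1* with 0 reads there, and *Cxcr6* overlaps between the groups.

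Neutrophil markers and those of other cells moved with these results, and their counts stand beside 27.7% of all tested genes lower and 29.0% higher. The neutrophil list had 9 of 9 tested genes lower, and its summed normalized counts were 9480 and 28192 in control mice 1 and 2 and 3556 and 2875 in *Bmal1* cKO mice 1 and 2, with control mouse 2 highest, as for *Cxcl2*, *Cxcl3*, *Csf3*, *Cxcr2* and *Csf3r*. The granule gene *Ngp* reached 156 and 706 normalized counts in control mice 1 and 2 but had 0 reads in both *Bmal1* cKO mice. *Camp* and *Stfa1* also had 0 reads there, but only 13 and 5 and 0 and 32 reads in control mice 1 and 2. Both were below the mean required for a test, and *Mpo* and *Elane* were not listed. *Ly6g*, a surface marker of neutrophils, fell less, from 5801 and 7474 to 2918 and 2549 (log2 fold change -1.27), and made up 82.1% and 88.7% of the sum in *Bmal1* cKO mice 1 and 2. Without it, a choice made after its values were seen, the sums were 3679 and 20718 against 638 and 326. The macrophage and monocyte list had 12 of 15 genes lower, with sums of 10303 and 8926 against 2141 and 2130. The T and NK cell list had 5 of 8 lower, with sums of 542 and 163 against 45.3 and 86.5. Of its called genes, *Cd4*, *Trac*, *Gzma* and *Gzmb* reached the mean required for a test only through the control mice. *Cd3d*, *Cd8b1*, *Nkg7* and *Ncr1* did not reach it, and *Cd3e* and *Klrd1* overlapped between the groups. Of stromal cells, 8 of 10 fibroblast markers (sums of 17014 and 3868 against 550 and 619), 8 of 8 endothelial markers (2285 and 544 against 74.1 and 91.9, with *Emcn* at 0 in both *Bmal1* cKO mice) and 5 of 6 smooth muscle markers (1738 and 1922 against 18.5 and 35.1) were lower. Epithelial markers were plentiful in all 4 libraries, with sums of 206172 and 273307 against 175756 and 198347, where 5 of 14 were lower, near the share of all tested genes, and 2 higher (8 and 1 with the library total as the scale, 0 and 6 after correction for GC content and length, 4 and 0 without *Bmal1* cKO mouse 1, and 3 and 0 without *Bmal1* cKO mouse 2). The counts of the other lists shrank without a *Bmal1* cKO mouse, to 5 and 4 neutrophil, 5 and 8 macrophage and monocyte, 0 and 0 T and NK cell, 5 and 5 fibroblast and 2 and 3 endothelial genes without mouse 1 and mouse 2, whereas 5 smooth muscle genes were lower in each such fit. Without control mouse 1 the T and NK cell list had 1. The part of these cells in the fall of *Csf3*, *Cxcl1*, *Cxcl2*, *Cxcl16* and the receptors was not tested.

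**Figure D5:**
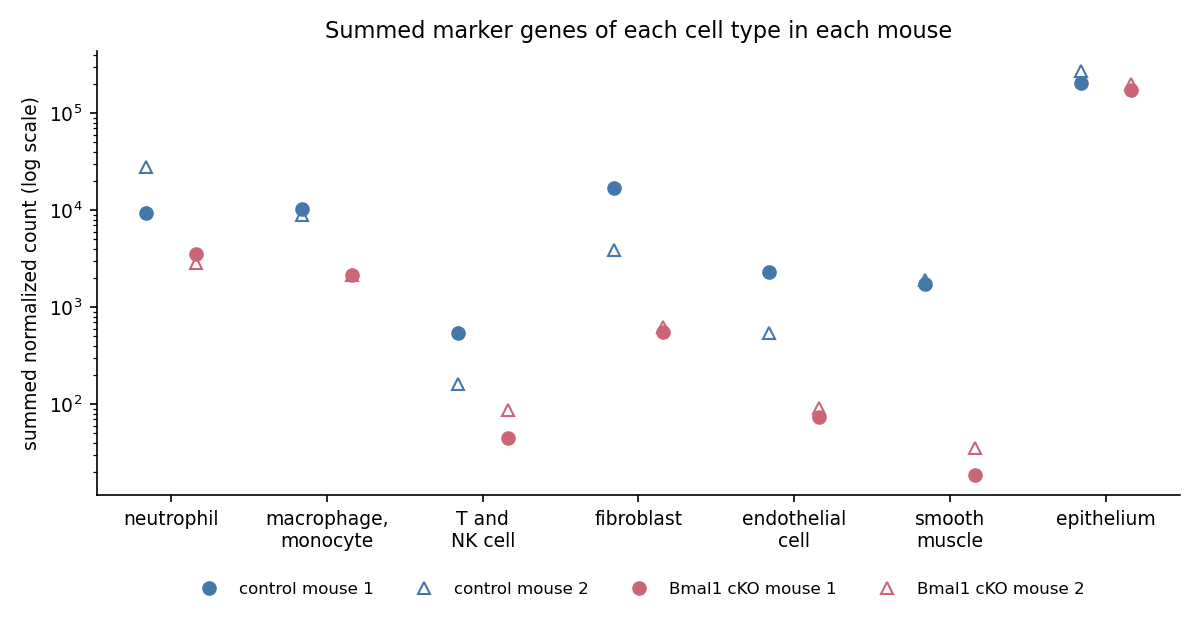
Summed normalized counts on a log scale (y axis) of the listed marker genes of 7 cell types (x axis) in each of the 4 mice. The *Bmal1* cKO mice sit below both control mice for all 7 types, and the groups are closest for the epithelial sums, which lie between 175756 and 273307.

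Of 4 other CXC chemokines tested, 1 was lower and 3 did not pass, where 27.7% of all tested genes were lower. For all 4, both *Bmal1* cKO mice lay below both control mice (41.7% of all tested genes), and the median log2 fold change was -3.65. *Cxcl12*, the stromal ligand of CXCR4, had 772 and 65.2 normalized counts in control mice 1 and 2, from 914 and 77 reads, and 0 and 2 reads in *Bmal1* cKO mice 1 and 2 (adjusted p = 0.00792). The 3 that did not pass, *Cxcl13* (adjusted p = 0.0635), *Cxcl14* (0.0953) and *Pf4* (0.124), were, like *Cxcl12*, highest in control mouse 1, and all 4 were lower without control mouse 2 or by DESeq2 on the recovered reads, 3 with the replicate block and none without *Bmal1* cKO mouse 1. Of the other hematopoietic growth factors, *Csf1*, the macrophage factor, was lower (121.7 and 70.3 against 29.8 and 12.2 normalized counts, log2 fold change -2.21, adjusted p = 0.0194). *Il34*, which shares its receptor, was lower as well (196 and 124 against 48.3 and 70.3, log2 fold change -1.40, adjusted p = 0.0178), and *Kitl*, which encodes stem cell factor, was higher (990 and 1267 against 4089 and 4740, log2 fold change 1.97, adjusted p = 0.000592). *Kitl* kept its call when any mouse was left out, at a smaller size after correction for GC content and length (0.87), whereas *Csf1* kept it only without *Bmal1* cKO mouse 1 and *Il34* only without control mouse 2, and both lost it after correction for GC content and length, *Csf1* at -1.68 (adjusted p = 0.0603, and 0.0374 with the replicate block added) and *Il34* at -0.50 (adjusted p = 0.291).

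Genes upstream of the members were split, and their counts read against the 27.7% of all tested genes that were lower and the 29.0% that were higher. In the IL-17 pathway, 6 of 10 tested genes were lower and 2 higher (median log2 fold change -1.03). *Cebpb*, a transcription factor that acts with NF-κB at many cytokine promoters, fell from 819 and 772 normalized counts in the control mice to 31.9 and 52.7 in the *Bmal1* cKO mice (log2 fold change -4.24, adjusted p = 0.000533). Its relative *Cebpd* fell by 2.90 on the log2 scale, while *Traf6*, the adaptor ubiquitin ligase, rose by 0.82 and *Nfkbiz*, which encodes the coactivator IκBζ, by 0.53. The calls of *Cebpb* and *Traf6* held with any mouse left out, that of *Cebpd* was lost without either *Bmal1* cKO mouse, and that of *Nfkbiz* held, among these fits, only without control mouse 2. Correction for GC content and length reduced *Cebpb* to -1.71 and *Traf6* to 0.30. It left *Nfkbiz* at 0.52 but ended its call (adjusted p = 0.0567, and 0.0241 with the replicate block added). Together with the replicate block, the correction ended the calls of *Traf6* (adjusted p = 0.0822) and *Cebpd* (adjusted p = 0.0550), the latter still at -2.70. It left 3 genes of the list lower and 2 higher. In the NF-κB pathway, 10 of 23 genes were lower and 6 higher (median -0.36). The inhibitor gene *Nfkbie* (-3.28) and the subunit gene *Nfkb2* (-2.34) were lower, and *Cyld* (1.06), a deubiquitinase that restrains the pathway, and *Ikbkg* (1.08), the scaffold of the kinase complex, were higher. After correction for GC content and length, 7 genes were lower and 3 higher, *Nfkb2* was at -1.12, *Cyld* at 0.34 and *Ikbkg* at 0.46, the last no longer called (adjusted p = 0.0697). With the replicate block added, *Cyld* lost its call too (adjusted p = 0.0593), and 7 genes were lower and 1 higher.

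Among inducing cytokines and their receptors, 6 of 14 genes were lower and 1 higher (median log2 fold change -0.76). Without *Bmal1* cKO mouse 1 this was 4 lower, and without *Bmal1* cKO mouse 2 it was 3. *Il1b* had 879 and 4261 normalized counts in control mice 1 and 2 and 265 and 173 in *Bmal1* cKO mice 1 and 2 (log2 fold change -3.17, adjusted p = 0.0148), with the same order of the 4 mice as *Cxcl2* and *Cxcl3*. *Tnf* had 189 and 246 against 55.5 and 36.5 (log2 fold change -2.23, adjusted p = 0.00257). The TNF receptor gene *Tnfrsf1a* was lower by a small margin (-0.58), which turned to 0.17 after correction for GC content and length, and *Tlr4*, the endotoxin receptor gene, was higher (1.78, and 0.69 after that correction). *Tnf* was called with any mouse left out, *Il1b* was not without either *Bmal1* cKO mouse, and *Tnfrsf1a* was called only without control mouse 2.

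In the interferon pathway, which lies upstream of *Cxcl9* and *Cxcl10*, 4 of 14 genes were lower and 5 higher (median log2 fold change 0.22). These counts were close to the shares of all tested genes in the main fit. After correction for GC content and length, 3 were lower and 6 higher, and with the replicate block added 2 and 6. Over all tested genes the same fits gave 2458 lower and 2570 higher, and 2077 and 2177 with the block. The higher genes numbered 2 without either *Bmal1* cKO mouse and 3 with the library total as the scale. *Ifngr1*, a receptor chain for interferon-γ, had 3400 and 3328 normalized counts in control mice 1 and 2 and 6157 and 5811 in *Bmal1* cKO mice 1 and 2 and was higher (log2 fold change 0.83, adjusted p = 0.00135), and *Ifnar2* (-2.74) and *Irf7* (-1.26), of the type I response, were lower. After correction for GC content and length *Irf7* was at -0.58, and with the replicate block added it lost its call (adjusted p = 0.0538). *Ifng* itself was below the mean required for a test, with 1.69 and 0 normalized counts in control mice 1 and 2 and 11.3 and 5.41 in *Bmal1* cKO mice 1 and 2. These values rest on at most 11 reads per library and were not tested.

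Of the factors that control the decay of AU-rich transcripts, 3 of 10 were lower and 5 higher (median log2 fold change 0.16), where 27.7% of all tested genes were lower and 29.0% higher. The higher genes numbered 3 without control mouse 1, without control mouse 2 or without *Bmal1* cKO mouse 1, and with the library total as the scale 4 were lower and 3 higher. *Zfp36*, whose product tristetraprolin binds ATTTA elements and speeds decay, was lower (1536 and 2003 against 268 and 369 normalized counts, log2 fold change -2.47), as was *Khsrp* (-1.19). *Tia1* (1.98) and *Rc3h2* (1.54) were higher. Both sheddases of CXCL16 were also among the 29.0% of tested genes that were higher, *Adam10* with 2343 and 2004 against 6354 and 6112 normalized counts (log2 fold change 1.52, adjusted p = 0.000546) and *Adam17* with a log2 fold change of 0.87 (adjusted p = 0.00142), opposite in direction to *Cxcl16*. The calls of these 6 named genes held with any mouse left out. After correction for GC content and length, *Tia1* was at 1.05, *Rc3h2* at 0.42 and *Adam10* at 0.69, and *Adam17* (0.29, adjusted p = 0.0603) and *Khsrp* (-0.27, adjusted p = 0.0716) lost their calls.

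Each member was last set beside the gene most like it in pattern, by the root mean square difference of centered log2(normalized count + 1) over the 4 libraries over the 9977 genes whose mean was 100 or more. *Csf3* lay nearest to *Des*, which encodes the muscle filament desmin (difference 0.16), with 182 and 275 normalized counts in control mice 1 and 2 and 0 and 1.35 in *Bmal1* cKO mice 1 and 2. *Cxcl2* lay nearest to *Nlrp3* (0.092), the inflammasome sensor gene, and *Cxcl3* to *Hdc* (0.23), which encodes the enzyme that makes histamine. *Cxcl1* was nearest to *Nrg1* (0.29), *Cxcl5* to *Serpinb9* (0.049) and *Cxcl16* to the laminin gene *Lama5* (0.11). *Cxcl10* was nearest to *Abi2* (0.13), *Ccl20* to *Crtap* (0.062) and *Cxcl9* to *Cps1* (0.37), the least close of the 9 pairs. With 4 libraries such likeness describes these mice only.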

How the data were processed

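RNA from colonic epithelial cells of 2 control mice and 2 *Bmal1* cKO mice was sequenced by the authors. The methods state alignment to GRCm38 with STAR and differential expression with DESeq2. The counter, the annotation and the use of strand are not given in the sources used here. The labels and the methods name different library kits. The values the authors deposited per mouse are a signal (DESeq2-normalized counts, each count over its library's size factor). Their fold changes, test statistics and p-values were not used. In each library 100% of the values came out as whole reads (tolerance 0.1 reads).

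Values were taken to log2(value + 1) and compared by limma 3.58.1 (R 4.3.3) in two-sided tests with a trend of the variance on the mean, adjusted after Benjamini and Hochberg over 13983 genes, with a threshold of 0.05. The alternatives were pseudocounts of 0.5 and 5, no minimum mean or one of 50, scaling by library total or TMM, edgeR 4.0.16 and DESeq2 1.42.0 on the recovered reads, the mouse number as a block, correction for GC content and exon length by loess (span 0.3), and fits without each of the mice. Groups of 2 are too small for an exact permutation test to reach the threshold and were not tested for outliers. The steps were tested on simulated data.

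The genes named were the 9 members, per gene list the called genes with the 2 lowest and 2 highest log2 fold changes, and the most like gene of each member. Not every gene that this rule names is reported here. *Arntl*, overlapping genes, list members that were not called and marker genes were named after their values were seen. The members and lists were chosen with earlier results of these data known. Coordinates are those of GRCm38, from GENCODE M21 and, for promoters, RefSeq, which matched 6 of the 9 members.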

Additional observations from a re-analysis of the deposited data

How the results depend on the processing

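Of 135 values, 9 members under 15 alternatives, 116 kept their direction and their side of the threshold, 6 fell short of it, 10 newly passed it and 3 turned direction, all 3 for *Cxcl5* (-0.28 after correction for GC content and length, -0.28 for this correction with the replicate block, and -0.55 without control mouse 2). *Cxcl5* also passed without control mouse 1 (1.61). *Csf3*, *Cxcl9* and *Cxcl16* were called under all 15. With a mouse left out, which assumes that the lone mouse varies like the others, the members that were lower numbered 2 to 4 and those higher 1 to 2. Over all tested genes the same fits gave 2205 to 2852 lower and 2654 to 3154 higher. After correction for GC content and length, 2458 were lower and 2570 higher, and together with the replicate block 2077 and 2177. The cause was not tested. Across genes, the difference between control mice 1 and 2 did not follow that between *Bmal1* cKO mice 1 and 2 (correlation -0.09). A single pair of differences cannot tell whether same-numbered mice were paired. With the replicate block, 5 members were lower, since *Cxcl3* passed (adjusted p = 0.0354), and 1 was higher, against 3789 and 3899 of all tested genes. Scaling by the library total moved the median log2 fold change of all genes to -0.27 from -0.04. The depth allowed 3 reads as the smallest detectable amount, or 2.53 to 4.06 normalized counts per library.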
